A study of Homo sapiens with 24 samples.

Results

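The 9 genes described here encode transcription factors that set the hepatocyte programme: *HNF4A*, *FOXA1*, *FOXA2*, *FOXA3*, *NR1H4*, *NR0B2*, *NR5A2*, *ONECUT1* and *PROX1*. They were chosen by gene symbol, as 9 of the 18915 genes in the count table, and all 9 were among the 12685 genes that passed the filter on low counts and were tested. RNA was measured in HepG2, an established human hepatoma line. It was treated for 10 h with solvent (DMSO), with 50 nM ISRIB, with 20 µM nelfinavir (Nelf), with 50 nM bortezomib (Btz), with Btz and Nelf together (Btz+Nelf), or with Btz and ISRIB together (Btz+ISRIB), with 4 biological replicate libraries per group and the same drug doses alone and in combination. Bortezomib inhibits the proteasome. Nelfinavir is an HIV protease inhibitor that also induces the stress factor ATF4, and ISRIB blocks the translational effect of phosphorylated eIF2α, the step that leads to ATF4 synthesis.

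Hepatocyte identity rests on a network in which HNF4A, an orphan nuclear receptor, and the forkhead factors FOXA1, FOXA2 and FOXA3 bind the regulatory regions of many liver genes, together with the cut-homeobox factor ONECUT1 (HNF6) and the homeobox factor PROX1. Bile acid balance is kept by a second circuit. The bile acid receptor NR1H4 (FXR) induces *NR0B2* (SHP), a nuclear receptor without a DNA-binding domain that represses NR5A2 (LRH-1) and HNF4A, and with them *CYP7A1*, the rate-limiting enzyme of bile acid synthesis.

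The libraries held 5154533 to 6943164 counts. All 8 hepatocyte markers checked (*ALB*, *AFP*, *APOA1*, *APOB*, *TF*, *SERPINA1*, *TTR* and *FGB*) reached at least 1 CPM in every group, and their sum was 12970 to 14470 CPM in DMSO, 10140 to 10750 in Btz and 6679 to 8598 in Btz+Nelf. Of the endothelial markers 1 of 4 (*KDR*) has a row in the table, and it reached at most 0.194 CPM in any library. The fibroblast markers, with 3 of 4 in the table, summed to at most 1.26 CPM. The summed leukocyte list, with 3 of 4 markers in the table (*PTPRC* has no row), was 337.5 to 419.9 CPM in DMSO and 74.7 to 127 CPM in Btz. In every group 2 of its markers reached at least 1 CPM. The bile duct list, with *KRT7* at 0 in all groups but ISRIB, was 381 to 407 CPM in DMSO, 361 to 426 in Btz, 263 to 350 in Nelf and 215.5 to 305 in Btz+Nelf. The part of these genes in the results was not tested. CPM here is the count per 1000000 of the library's total after TMM scaling. Since the library kit reads the 3′ end of each transcript, a count does not grow with transcript length, and levels of different genes are compared below as 3′ tags. The TMM factors were 1.16 to 1.24 in the groups without Btz and 0.786 to 0.869 in those with Btz, and mitochondrially encoded genes took 18.02% to 23.2% of the counts without Btz and 24.9% to 40.2% with it. The 9 calls in the Btz comparison were also made with mitochondrial genes removed. All values are RNA shares in bulk cultures, in which fewer cells of a kind and less RNA per cell cannot be told apart.

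Btz alone lowered 8 of the 9 factors and raised 1. *ONECUT1*, *FOXA1*, *NR5A2*, *FOXA3*, *FOXA2*, *NR1H4*, *PROX1* and *HNF4A* fell, in order of fold change, and *NR0B2* rose 5.74-fold. In the quasi-likelihood test of edgeR, with p-values adjusted by Benjamini-Hochberg over all tested genes and calls made under 0.05, 27.6% of all tested genes were called higher and 25.8% lower. The median log2 fold change of the 9 was −1.36, against 0.002 over all tested genes. In each of the 9, the 4 Btz libraries did not overlap the 4 DMSO libraries, which held for 50.0% of all tested genes.

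Nelf alone gave a mixed picture, with 4 factors higher (*NR0B2*, *FOXA3*, *HNF4A* and *NR1H4*) and 2 lower (*FOXA1* and *PROX1*). The background was 10.4% of tested genes called higher and 8.84% lower. The Nelf and DMSO libraries did not overlap in 8 of the 9, *NR5A2* being the exception, against 29.6% of all genes. ISRIB alone changed none of the 9, as 0% of all tested genes were called higher and 0% lower. At an unadjusted p under 0.05, edgeR gave 703 of all tested genes and 0 of the 9 factors. DESeq2 called 21 genes, none of them among the 9. It gave no adjusted p for *FOXA1*, *FOXA3*, *NR1H4*, *NR5A2* and *ONECUT1*, so these could not be called there. *HNF4A* was the 1 factor of the 9 whose ISRIB and DMSO libraries did not overlap, which held for 8.01% of all genes. The log2 differences of the 9 from DMSO ran from −0.64 (*ONECUT1*, SE 0.38) to 0.16 (*HNF4A*, SE 0.11).

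**Figure D1:**
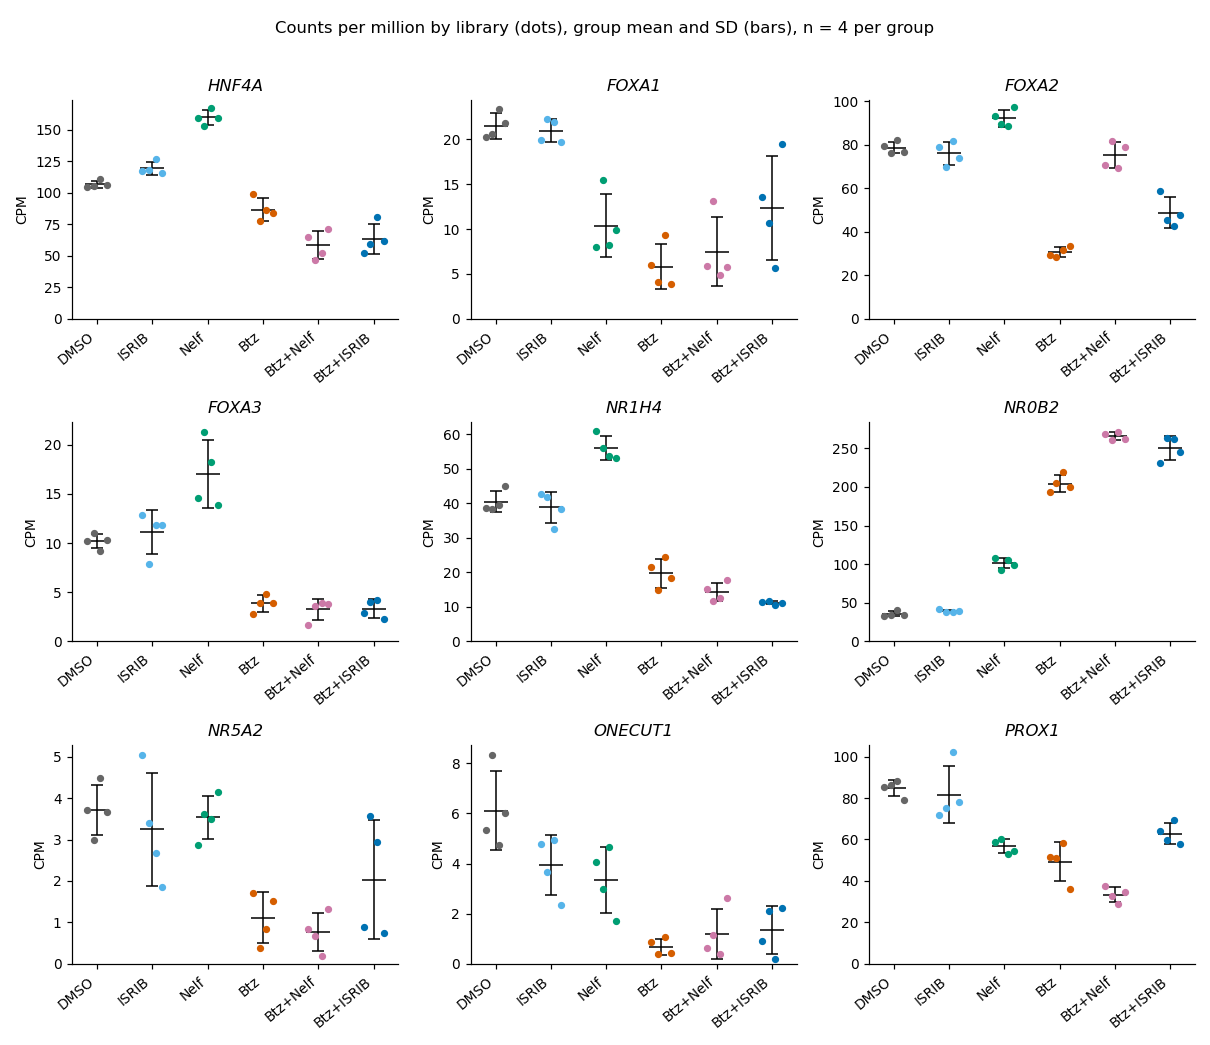
Level of each of the 9 genes in the 24 libraries (dots; y axis, CPM after TMM scaling) by treatment (x axis), with the group mean and SD as bars. *NR0B2* is higher in each group with Btz than in any without it, and the other 8 are lower in Btz than in DMSO.

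Added to Btz, both drugs split the factors. Nelf raised *FOXA2* and *NR0B2* and lowered *HNF4A*, *PROX1* and *NR1H4* relative to Btz alone, that is 2 higher and 3 lower, with 15.6% of all tested genes higher and 13.4% lower. ISRIB raised *FOXA1*, *FOXA2* and *NR0B2* and lowered *NR1H4* and *HNF4A* relative to Btz alone, that is 3 higher and 2 lower, with 6.91% of all genes higher and 5.34% lower. Libraries did not overlap in 3 of the 9 on adding Nelf (21.5% of all genes) and in 3 of the 9 on adding ISRIB (12.5%). Both co-treatments were compared with the same Btz libraries, and both single drugs with the same DMSO libraries, so these comparisons are not independent of each other.

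**Figure D2:**
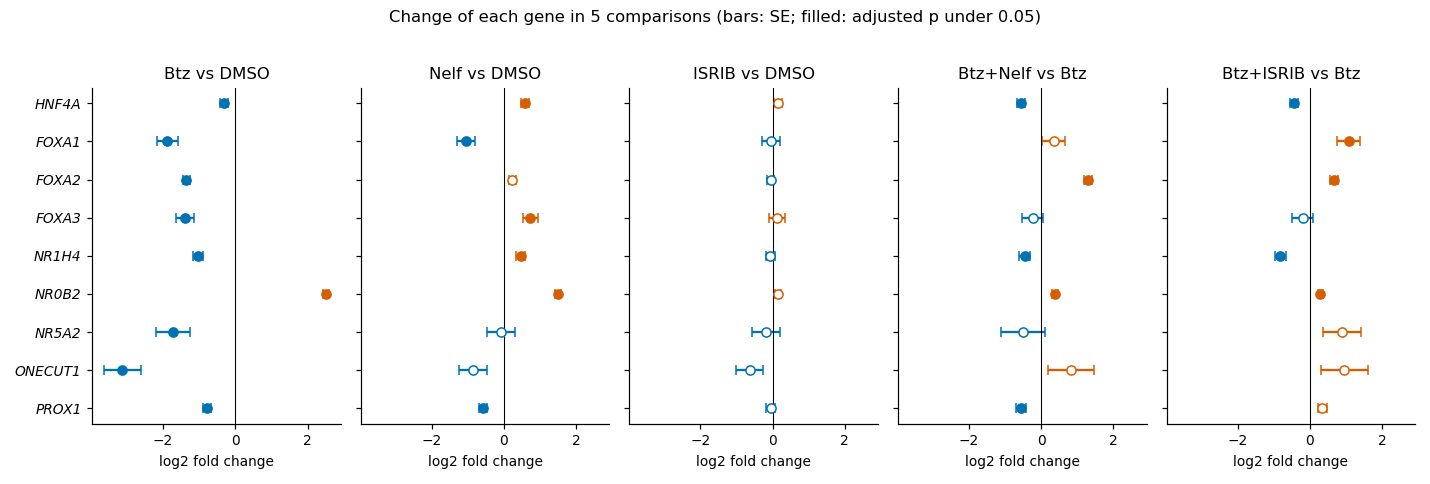
Log2 fold change of each gene (x axis) in the 5 pairwise comparisons, with its SE; filled points passed an adjusted p under 0.05 and open points did not. All 9 points are filled for Btz against DMSO and none for ISRIB against DMSO.

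*HNF4A* (ENSG00000101076; GRCh37 chromosome 20, 42984339 to 43061485, plus strand) stood at 105, 106, 111 and 106 CPM in the DMSO libraries. In Btz it stood at 98.8, 77.4, 86.6 and 83.8 CPM, all below DMSO. The log2 fold change was −0.30 (SE 0.11, adjusted p = 0.0215), the smallest fall among the 8, and without DMSO replicate 3 it was −0.29 with an adjusted p of 0.0505. With Nelf alone the libraries held 159, 153, 168 and 159 CPM, all above DMSO. This was a rise of 0.58 on the log2 scale (SE 0.11, adjusted p = 0.000137).

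The direction of the Nelf change in *HNF4A* turned around when Btz was present. In Btz+Nelf the libraries held 65.3, 46.8, 52.1 and 70.9 CPM, all below the 4 libraries with Btz alone (log2 fold change −0.56, SE 0.12, adjusted p = 0.000401). The interaction term, which is the change on adding Nelf in the presence of Btz minus that in its absence, was −1.14 (SE 0.16, adjusted p = 2.26e-06). ISRIB went the same way in the presence of Btz, with 52.5, 59.3, 80.6 and 62.0 CPM in Btz+ISRIB, of which the highest library overlapped the Btz range. The change was −0.44 (SE 0.12, adjusted p = 0.00886), and it missed the threshold without Btz_ISRIB replicate 1 (adjusted p = 0.0509). ISRIB alone gave 117, 118, 127 and 116 CPM, a difference of 0.16 from DMSO that did not pass the test (adjusted p = 1.0). The ISRIB interaction term for *HNF4A* was −0.60 (SE 0.16, adjusted p = 0.0191), and it missed the threshold without Btz_ISRIB replicate 1 (adjusted p = 0.0608) or Btz replicate 1 (adjusted p = 0.0520).

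Among the interaction terms with Nelf, 5 of the 9 passed, *FOXA1* and *FOXA2* with a positive sign and *HNF4A*, *NR1H4* and *NR0B2* with a negative one, where 9.74% of all tested genes had a higher and 10.0% a lower term. With ISRIB 3 of the 9 passed, *FOXA2* positive and *HNF4A* and *NR1H4* negative, against 2.93% and 1.89% of all genes.

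**Figure D3:**
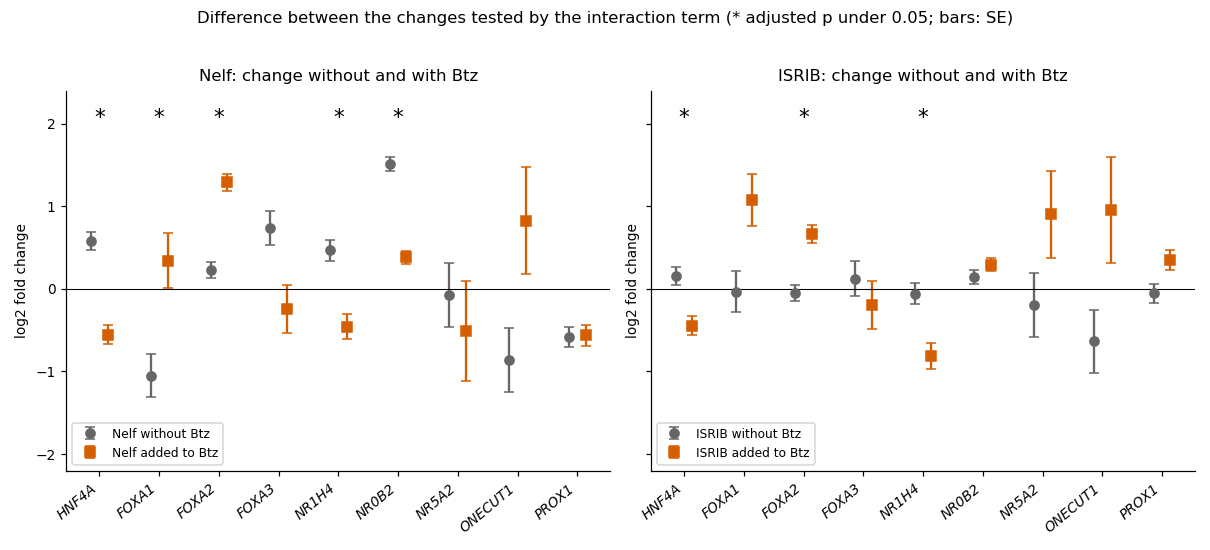
Log2 fold change (y axis, with SE) of each gene on adding Nelf (left) or ISRIB (right), without Btz (grey circles, against DMSO) and on top of Btz (orange squares, against Btz). Stars mark interaction terms with an adjusted p under 0.05: 5 genes for Nelf and 3 for ISRIB. *HNF4A* and *NR1H4* lie above 0 for Nelf without Btz and below 0 on top of it.

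*HNF4A*, *NR1H4* and *FOXA3* ran close to each other over the 24 libraries. Pearson's r of log2 CPM was 0.93 between *HNF4A* and *NR1H4*, 0.906 between *FOXA3* and *NR1H4* and 0.867 between *HNF4A* and *FOXA3*, a description over libraries that share their treatment groups. Promoter windows of *NR1H4* and *FOXA3* are shown because these genes vary together. Each is 300 bases, 250 before and 50 after the start, from RefSeq on GRCh38.p14, a later build than that of the counts, on the plus strand. *HNF4A* has 2 windows, 1 at each of its alternative starts, and 3′ counts do not tell transcripts from the 2 starts apart. Neither held any of the letters searched, and they are not printed. Letters for the hepatocyte factor HNF1 were not searched in any window. The positions of the other windows are chr12:100503110-100503409 for *NR1H4* and chr19:45864076-45864375 for *FOXA3*. Capitals mark matches to the hexamer bound by many nuclear receptors (AGGTCA, in reverse TGACCT) and to the heat shock letters GAANNTTC.
NR1H4: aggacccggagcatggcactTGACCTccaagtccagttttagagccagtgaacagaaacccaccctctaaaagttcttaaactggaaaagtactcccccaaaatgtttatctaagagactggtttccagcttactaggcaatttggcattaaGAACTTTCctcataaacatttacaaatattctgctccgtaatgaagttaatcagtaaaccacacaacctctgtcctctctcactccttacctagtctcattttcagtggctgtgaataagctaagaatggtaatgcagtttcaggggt
FOXA3: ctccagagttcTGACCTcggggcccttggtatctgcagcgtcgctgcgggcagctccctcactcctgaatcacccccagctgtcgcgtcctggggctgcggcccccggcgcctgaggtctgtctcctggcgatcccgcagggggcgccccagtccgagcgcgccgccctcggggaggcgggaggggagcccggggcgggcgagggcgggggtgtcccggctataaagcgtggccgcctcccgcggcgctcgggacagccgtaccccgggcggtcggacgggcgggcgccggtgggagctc

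Windows were found for 6 of the 9 genes, which also include *FOXA1*, *NR5A2* and *ONECUT1*. *NR1H4* held a hexamer at 230 and the heat shock letters at 98 bases before the start, and *FOXA3* held a hexamer at 239. Of all 35116 RefSeq windows, searched on both strands, 13.8% held the hexamer and 6.77% the heat shock letters. The FOXA letters TGTTTAC or TATTTAC (5.97% of windows), the HNF4 letters CAAAGTCCA (0.384%) and the C/EBP-ATF letters TGATGNAAT (0.991%) had no match in the 2 windows printed, which says only that these letters are not in them. No matches overlapped. Of the windows not printed, the 2 of *NR5A2* held a hexamer 84 bases before the first start and, before the second, the FOXA letters at 105 and the heat shock letters at 90 bases, and those of *FOXA1* and *ONECUT1* held none of the letters searched.

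The 3 forkhead genes had different profiles. *FOXA2* was the most counted of them in DMSO (78.6 CPM ± 2.63, SD, n = 4), followed by *FOXA1* (21.5 ± 1.43) and *FOXA3* (10.2 ± 0.749). All 3 fell with Btz, and they parted with the other drugs.

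*FOXA2* (ENSG00000125798; chromosome 20, 22561636 to 22566093, minus strand) stood at 79.4, 76.3, 82.0 and 76.8 CPM in DMSO. In Btz it stood at 29.3, 28.5, 31.5 and 33.5 CPM, below every other group without overlap. The log2 fold change was −1.36 (SE 0.10, adjusted p = 3.72e-13). Adding Nelf to Btz brought it to 70.6, 81.8, 69.4 and 79.0 CPM, a range that overlapped DMSO (log2 fold change against Btz 1.29, SE 0.10, adjusted p = 1.88e-11). Adding ISRIB gave 58.8, 45.4, 42.7 and 47.9 CPM, between Btz and DMSO with no overlap with either (0.67, SE 0.11, adjusted p = 3.27e-05). Nelf without Btz gave 93.1, 89.6, 88.8 and 97.1 CPM. These libraries lay above all DMSO libraries, but the difference of 0.23 on the log2 scale did not pass (SE 0.09, adjusted p = 0.0874), although it did in DESeq2 (adjusted p = 0.0487) and with only the 2 groups in the fit (0.0229). The *FOXA2* interaction terms were 1.06 for Nelf (SE 0.14, adjusted p = 7.95e-07) and 0.71 for ISRIB (SE 0.14, adjusted p = 0.00152).

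*FOXA1* (ENSG00000129514; chromosome 14, 38058757 to 38065264, minus strand) stood at 20.2, 20.6, 23.4 and 21.8 CPM in DMSO and at 5.99, 4.07, 9.29 and 3.89 CPM in Btz. The groups did not overlap, and the log2 fold change was −1.89 (SE 0.29, adjusted p = 1.8e-06). Nelf alone gave 8.004, 15.5, 8.18 and 9.87 CPM, all below DMSO, while *HNF4A*, *FOXA3* and *NR1H4* rose in the same libraries. The fall was −1.05 on the log2 scale (SE 0.26, adjusted p = 0.00326). On top of Btz, Nelf made no difference that passed (5.92, 13.2, 4.91 and 5.82 CPM; log2 fold change 0.34, SE 0.33, adjusted p = 0.466), and the sign of this value rested on Btz_Nelf replicate 2, without which it was −0.0143. The Nelf interaction term was 1.39 (SE 0.42, adjusted p = 0.0169), and 1.04 with an adjusted p of 0.0652 without that library.

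ISRIB on top of Btz gave 13.6, 10.7, 5.69 and 19.5 CPM of *FOXA1*, with 1 library inside the Btz range and the other 3 above it. The rise was 1.08 (SE 0.31, adjusted p = 0.0203). It missed the threshold without Btz_ISRIB replicate 4 (0.78, adjusted p = 0.118), without Btz replicate 2 (adjusted p = 0.0691) or Btz replicate 4 (0.0694), and with only the 2 groups in the fit (0.0671). The 5′ end of *FOXA1* is overlapped by *TTC6* on the other strand. Whether counting used the strand is not given in the sources used here, and reads of the overlap cannot be told apart. *TTC6* had 931 counts in the 24 libraries, against 2117 for *FOXA1*, and a log2 fold change with Btz of −0.26 (adjusted p = 0.545).

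*FOXA3* (ENSG00000170608; chromosome 19, 46367247 to 46377055, plus strand) stood at 10.2, 11.1, 9.24 and 10.3 CPM in DMSO and at 2.78, 3.88, 4.86 and 3.89 CPM in Btz, without overlap (log2 fold change −1.40, SE 0.25, adjusted p = 1.3e-05). Nelf alone gave 14.6, 21.3, 18.3 and 13.9 CPM, all above DMSO (0.73, SE 0.21, adjusted p = 0.00941), and without Nelf replicate 2 the adjusted p was 0.0563. In the presence of Btz neither drug moved it past the threshold, with means of 3.25 CPM ± 1.05 in Btz+Nelf and 3.33 ± 0.934 in Btz+ISRIB (SD, n = 4 each) beside 3.85 ± 0.849 in Btz. The Nelf interaction term of −0.97 did not pass (SE 0.36, adjusted p = 0.0508), but it did in 6 of the 10 other settings, with adjusted p from 0.0423 (DESeq2) to 0.0498 (without mitochondrial genes).

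The ratio of *FOXA2* to *FOXA3* counts was 7.75 ± 0.834 in DMSO and 8.24 ± 1.76 in Btz, with overlapping libraries. In Btz+Nelf it was 25.7 ± 10.9, with all 4 libraries (17.6 to 41.8) above the highest Btz library (10.54). The ratio restates the levels of both genes and was not tested.

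*ONECUT1* (ENSG00000169856; chromosome 15, 53047250 to 53083275, minus strand) had the largest fold change of the 9 with Btz. It had 46, 64, 34 and 49 counts in the DMSO libraries and 4, 2, 5 and 2 in Btz. The log2 fold change was −3.13 (SE 0.52, adjusted p = 4.76e-06), with no overlap. The co-treated libraries remained low, at 3, 5, 2 and 14 counts with Btz+Nelf and 4, 10, 1 and 9 with Btz+ISRIB. At this depth neither differed from Btz past the threshold (log2 fold change 0.83, SE 0.64, adjusted p = 0.356 for Nelf and 0.96, SE 0.64, adjusted p = 0.362 for ISRIB). Nelf alone gave 34, 23, 36 and 13 counts. This was 3.35 CPM ± 1.31 against 6.11 ± 1.57 in DMSO (SD, n = 4), a log2 difference of −0.86 that did not pass (SE 0.38, adjusted p = 0.124) but did with only the 2 groups in the fit (adjusted p = 0.0128).

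*PROX1* (ENSG00000117707; chromosome 1, 214156524 to 214214853, plus strand) fell with each of Btz and Nelf, and further with both. DMSO libraries held 85.5, 86.2, 88.4 and 79.2 CPM. Nelf libraries held 58.8, 60.1, 53.1 and 54.5 CPM and Btz libraries 51.3, 51.2, 58.5 and 36.1 CPM, in both cases below DMSO without overlap. The log2 fold changes were −0.58 for Nelf (SE 0.12, adjusted p = 0.000355) and −0.78 for Btz (SE 0.12, adjusted p = 1.56e-06). Btz+Nelf libraries held 37.4, 32.7, 29.1 and 34.5 CPM, with only the highest of them inside the Btz range. Against Btz this was −0.56 (SE 0.13, adjusted p = 0.00115). The interaction term was 0.02 (SE 0.17, adjusted p = 0.949), so a difference between the Nelf changes with and without Btz was not detected for *PROX1*. With ISRIB on top of Btz it stood at 63.9, 59.9, 69.3 and 58.0 CPM, where 1 Btz library reached into the range. This difference of 0.35 did not pass (SE 0.12, adjusted p = 0.0607), but it did with the replicate number as a block (0.0452). The antisense gene *PROX1-AS1* overlaps the 5′ end of *PROX1*, and 164 bases near the end of a *PROX1* transcript model match it. It had 183 counts in all, against 9695 for *PROX1*.

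*NR1H4* (ENSG00000012504; chromosome 12, 100867486 to 100958192, plus strand), the bile acid receptor, stood at 38.7, 38.4, 39.6 and 45.0 CPM in DMSO and 21.4, 14.7, 24.5 and 18.4 CPM in Btz, without overlap (log2 fold change −1.04, SE 0.14, adjusted p = 1.22e-07). With Nelf alone it stood at 60.9, 56.01, 53.7 and 53.2 CPM, all above DMSO (0.47, SE 0.13, adjusted p = 0.00692). Both drugs lowered it when added to Btz. Btz+ISRIB libraries held 11.4, 11.7, 10.53 and 11.1 CPM, below all Btz libraries and with the smallest spread of any group (log2 fold change −0.82, SE 0.16, adjusted p = 0.000534). Btz+Nelf libraries held 15.2, 11.8, 12.6 and 17.6 CPM, overlapping Btz (−0.46, SE 0.15, adjusted p = 0.0230). The latter call was lost without any 1 of 4 libraries (Btz replicates 1 and 3, Btz_Nelf replicates 2 and 3; adjusted p from 0.0888 to 0.17), without the filter on low counts (0.0762) and with only the 2 groups in the fit (0.13).

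As with *HNF4A*, the Nelf change in *NR1H4* was upward without Btz and downward with it, and the interaction term was −0.93 (SE 0.20, adjusted p = 0.000911). The ISRIB interaction term was −0.76 (SE 0.20, adjusted p = 0.0235). It missed the threshold without Btz replicate 3 (adjusted p = 0.0690), DMSO replicate 1 (0.0502), ISRIB replicate 1 (0.0582) or ISRIB replicate 2 (0.0511).

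*NR0B2* (ENSG00000131910; chromosome 1, 27237980 to 27240466, minus strand), which NR1H4 induces when bile acids are bound, rose with Btz, with which the other 8 fell, and it also rose with Nelf. DMSO libraries held 33.4, 34.4, 40.2 and 34.6 CPM, and Nelf libraries 108, 92.7, 105 and 99.0 CPM (log2 fold change 1.51, SE 0.08, adjusted p = 7.89e-16). Btz libraries held 194, 205, 219 and 199.5 CPM (2.52, SE 0.08, adjusted p = 2.38e-22), and by p-value *NR0B2* ranked 12 of all 12685 genes in this comparison. Btz+Nelf libraries held 269, 261, 272 and 262 CPM and Btz+ISRIB libraries 231, 264, 261.5 and 246 CPM, all of them above the highest Btz library. From DMSO and ISRIB, which overlapped, the levels thus rose through Nelf and Btz to the co-treatments, which overlapped each other.

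Against Btz, *NR0B2* rose by 0.38 with Nelf (SE 0.08, adjusted p = 0.000330) and by 0.29 with ISRIB (SE 0.08, adjusted p = 0.0102). The ISRIB call was lost with library totals alone as scaling (adjusted p = 0.0571), without the filter (0.0586) and with only the 2 groups in the fit (0.0519). The step added by Nelf was smaller on top of Btz than without it (interaction −1.13, SE 0.11, adjusted p = 4.68e-09), a comparison on the log scale. On the linear scale the means were 35.6 CPM in DMSO and 101.2 in Nelf, and 204 in Btz and 266 in Btz+Nelf. These linear steps were close in size, a comparison that was not tested. *NR0B2* lies within the span of *NUDC*, which is on the other strand, and without a known strand setting any shared reads cannot be told apart. *NUDC* had 92.9 CPM in DMSO, 77.5 in Nelf, 158.5 in Btz, 171 in Btz+Nelf and 139.7 in Btz+ISRIB, and rose by 0.77 with Btz (adjusted p = 3.69e-08), while its mean in Nelf was below that in DMSO.

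**Figure D4:**
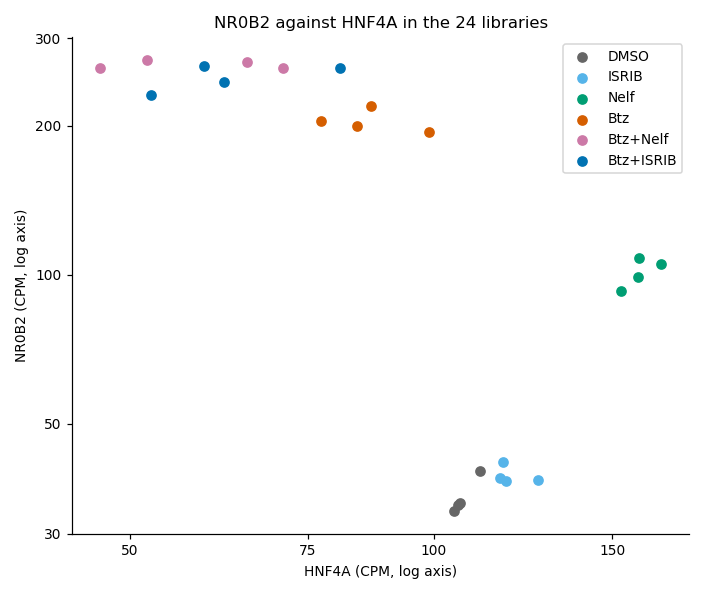
*NR0B2* (y axis) against *HNF4A* (x axis) in the 24 libraries, both in CPM on log axes, coloured by treatment. The Nelf libraries lie to the upper right of DMSO, with both genes higher, and the Btz libraries to the upper left, the co-treated ones highest in *NR0B2*.

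The ratio of *NR0B2* to *HNF4A* counts was 0.333 ± 0.0196 in DMSO, 0.331 ± 0.0222 in ISRIB and 0.633 ± 0.0313 in Nelf. It reached 2.38 ± 0.298 in Btz, 4.65 ± 0.893 in Btz+Nelf and 4.01 ± 0.558 in Btz+ISRIB (SD, n = 4 each). Both co-treated groups lay above Btz without overlap (3.24 or more against at most 2.64). For *NR0B2* to *NR1H4* the ratio was 0.885 ± 0.101 in DMSO, 1.81 ± 0.128 in Nelf, 10.7 ± 2.302 in Btz, 19.1 ± 3.44 in Btz+Nelf and 22.4 ± 1.85 in Btz+ISRIB. These ratios restate the levels above and were not tested.

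*NR5A2* (ENSG00000116833; chromosome 1, 199996742 to 200146548, plus strand), a direct activator of *CYP7A1*, was counted least. DMSO libraries had 32, 23, 32 and 30 counts and Btz libraries 8, 2, 4 and 7, without overlap (log2 fold change −1.74, SE 0.47, adjusted p = 0.00235). Nelf libraries, with 24, 28, 27 and 32 counts, overlapped DMSO (−0.07, SE 0.38, adjusted p = 0.936). The Btz+ISRIB libraries fell apart into 4 and 3 counts in replicates 1 and 4 and 17 and 14 in replicates 2 and 3. The difference from Btz was 0.90 (SE 0.52, adjusted p = 0.278), and Btz+Nelf differed by −0.51 (SE 0.61, adjusted p = 0.563), so a change on adding either drug was not detectable at this depth.

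For each factor, the 2 tested genes with the most similar log2 CPM over the 24 libraries were found, as a description only. They were *STAP2* and *ZKSCAN1* for *HNF4A* (Pearson's r 0.937 each), *GALNT11* (0.908) and *SAMD1* (0.894) for *FOXA1*, and *CTD-2186M15.3* (0.933) and *MIDN* (0.906) for *FOXA2*. *EPHA1* and *GLT8D1* were closest to *FOXA3* (0.954 each). *NR1H4* was followed most closely by *MTTP* (0.964), the microsomal triglyceride transfer protein that loads lipid onto apolipoprotein B, and *IDH2* (0.963). *NR0B2* was followed by *SLC38A2* (0.99), an amino acid transporter, and the autophagy kinase gene *ULK1* (0.988). *ULK1* stood at 11.1 CPM in DMSO, 50.8 in Nelf, 102 in Btz and 147 in Btz+Nelf. *TMEM218* (0.89) and *C7orf49* (0.87) came nearest to *NR5A2*, *SCN1A* (0.919) and *NGFRAP1* (0.893) to *ONECUT1*, and *TFPI* (0.943), an inhibitor of coagulation, and *SAA4* (0.925) to *PROX1*.

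Other transcription factors of the hepatocyte network fell with Btz as well. Of 15 tested, 11 were called lower and 1 higher, with a median log2 fold change of −1.15, against 25.8% of all genes lower and 27.6% higher. Among those lower were *CEBPA*, a basic leucine zipper factor of liver metabolism, from 119.8 CPM ± 3.10 to 52.4 ± 3.74 (log2 fold change −1.19, adjusted p = 2.6e-11), and *TBX3*, from 195 ± 17.0 to 79.4 ± 10.8 (−1.30, adjusted p = 3e-12). *ZBTB20*, a zinc finger repressor of *AFP*, was the 1 that rose (1.09, adjusted p = 0.000140). Nelf alone lowered 1 of the 15 (*NFIA*) and raised none, with a median of 0.09, against 8.84% and 10.4% of all genes. In the presence of Btz, Nelf raised 5 and lowered 3, against 15.6% and 13.4% of all genes. *CREB3L3*, a membrane-bound factor of the liver, went from 23.2 CPM ± 2.22 in Btz to 46.3 ± 8.75 with Nelf (0.99, adjusted p = 1.25e-05), and *NFIA*, a nuclear factor I protein, from 51.8 ± 6.74 to 33.5 ± 5.32 (−0.63, adjusted p = 0.0001). ISRIB on top of Btz raised 3, among them *ONECUT2* and *GATA6*, and lowered none, against 6.91% and 5.34% of all genes. *ONECUT2*, the relative of *ONECUT1*, stood at 23.96 CPM ± 2.65 in Btz and 34.8 ± 3.90 in Btz+ISRIB (0.53, adjusted p = 0.0113).

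Of 26 other nuclear receptors tested, 10 were lower and 4 higher with Btz (median −0.39), where 25.8% of all genes were lower and 27.6% higher. The orphan receptors *NR2F1* (−2.09, adjusted p = 2.28e-15) and *NR2F2* (−2.14, adjusted p = 4.58e-14) fell from 108 to 25.4 and from 112 to 25.5 CPM. *NR1D2* (REV-ERBβ, a clock repressor) and *NR1H2* (LXRβ, an oxysterol receptor) rose by 1.17 and 0.98. Nelf alone raised 3 (*RXRA*, *PPARA* and *RXRB*) and lowered 1 (*NR2F2*), against 10.4% and 8.84% of all genes. *RXRA*, the partner with which NR1H4 binds DNA, rose from 69.3 CPM ± 2.55 to 99.8 ± 7.34 (0.53, adjusted p = 0.000491) in the libraries in which *NR1H4* rose. Relative to Btz, adding Nelf raised 9 and lowered 2, where 15.6% of all genes were higher and 13.4% lower. Among those raised was *NR2F1*, to 62.1 CPM (1.29, adjusted p = 4.24e-09). ISRIB raised 2 and lowered 1, shares near those of all genes (6.91% and 5.34%).

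Of 18 nuclear receptor coregulators tested, 6 were higher and 2 lower with Btz (median 0.12), a share of higher calls near the 27.6% of all genes. *PPARGC1A* (PGC-1α), a coactivator of HNF4A and PPARα, fell the most, from 8.21 CPM ± 0.799 to 0.482 ± 0.563 (log2 fold change −4.07, adjusted p = 2.49e-09). Against Btz, *PPARGC1A* was higher by 2.67 with Nelf on top (3.125 CPM ± 1.04, adjusted p = 0.00017) and by 2.19 with ISRIB (2.24 ± 0.955, adjusted p = 0.00652). Both means remained below that in DMSO, and the Btz level from which these changes are taken was very low. *NCOR1*, a corepressor, fell from 206.5 to 164 CPM with Btz (−0.33, adjusted p = 0.000361). Nelf alone raised 4 coregulators and lowered 1, against 10.4% and 8.84% of all genes. With Btz present, Nelf raised 8 and lowered none, against 15.6% and 13.4% of all genes. ISRIB raised 1, a share near the 6.91% of all genes, and lowered 4, against 5.34%.

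Genes of bile acid synthesis and transport were called lower in 8 of 17 and higher in 2 with Btz (median −0.36), against 25.8% and 27.6% of all genes. *CYP7A1* stood at 5.70 CPM ± 0.206 in DMSO, 2.63 ± 0.407 in Nelf (−1.11, adjusted p = 0.022) and 0.949 ± 0.435 in Btz (−2.57, adjusted p = 7.1e-06). *KLB* (β-Klotho, a coreceptor of FGF19) fell from 75.05 to 15.4 CPM with Btz (−2.28, adjusted p = 3.97e-14). The 2 that rose were the canalicular pump *ABCC2*, from 142.5 CPM ± 15.9 to 432 ± 42.5 (1.60, adjusted p = 6.28e-16), and *SLC51A*, a subunit of the basolateral bile acid exporter that NR1H4 induces, from 10.6 ± 1.55 to 21.7 ± 3.85 (1.02, adjusted p = 1.27e-05). Nelf alone raised 4 and lowered 2, against 10.4% and 8.84% of all genes, with *SLC51A* at 61.6 CPM ± 7.24 (2.53, adjusted p = 1.36e-13). On top of Btz, Nelf raised 2 and lowered 7, against 15.6% and 13.4% of all genes. ISRIB raised 1 (*KLB*) and lowered 4, against 6.91% and 5.34%.

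Of 21 tested genes listed as targets of HNF4A and other hepatocyte factors, 12 were lower and 2 higher with Btz (median −0.51), against 25.8% and 27.6% of all genes. The fatty acid binding protein gene *FABP1* had the largest fall of the 21, from 392.5 CPM ± 38.4 to 48.8 ± 8.85. Its log2 fold change was −3.01, and that of *HNF4A* itself was −0.30. Whether the changes of these targets follow the level of *HNF4A* was not tested. The apolipoprotein genes *APOC3* (−1.97, adjusted p = 2.36e-14) and *APOH* (−1.26, adjusted p = 5.34e-14) fell too, and *RBP4*, the plasma carrier of retinol, rose by 0.58 (adjusted p = 3.03e-08). Nelf alone raised 5 and lowered none (median 0.15), against 10.4% and 8.84% of all genes. Among those raised were *F7*, coagulation factor VII (1.21, adjusted p = 1.04e-05), and *FGB*, a fibrinogen chain (0.43, adjusted p = 5.37e-05). On top of Btz, Nelf raised none and lowered 9 (median −0.23), against 15.6% and 13.4% of all genes. Among those lowered were *FGA* (−1.22, adjusted p = 3.37e-08), *APOA2* (−0.58, adjusted p = 7.88e-07) and *APOB* (−0.59, adjusted p = 5.95e-05). The interaction term passed the test with a negative sign in 10 of the 21 and with a positive one in none, against 10.0% and 9.74% of all genes. *APOA2* was called higher with Nelf alone and lower with Nelf on top of Btz, the directions of *HNF4A*. By group means, *FGB*, *FGA*, *APOB*, *RBP4* and *MTTP* moved in these directions too, while *FABP1*, *APOC3*, *APOH*, *F7* and *TTR* did not. ISRIB on top of Btz, with which *HNF4A* fell, split the targets, with 5 raised and 3 lowered (median 0.05), against 6.91% and 5.34% of all genes. *APOH* (0.61, adjusted p = 5.86e-06) and *TTR*, transthyretin (0.80, adjusted p = 1.35e-05), were higher. *APOB* (−0.52, adjusted p = 0.000716) and *MTTP* (−0.55, adjusted p = 0.00871) were lower. No list had a member called with ISRIB alone.

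**Figure D5:**
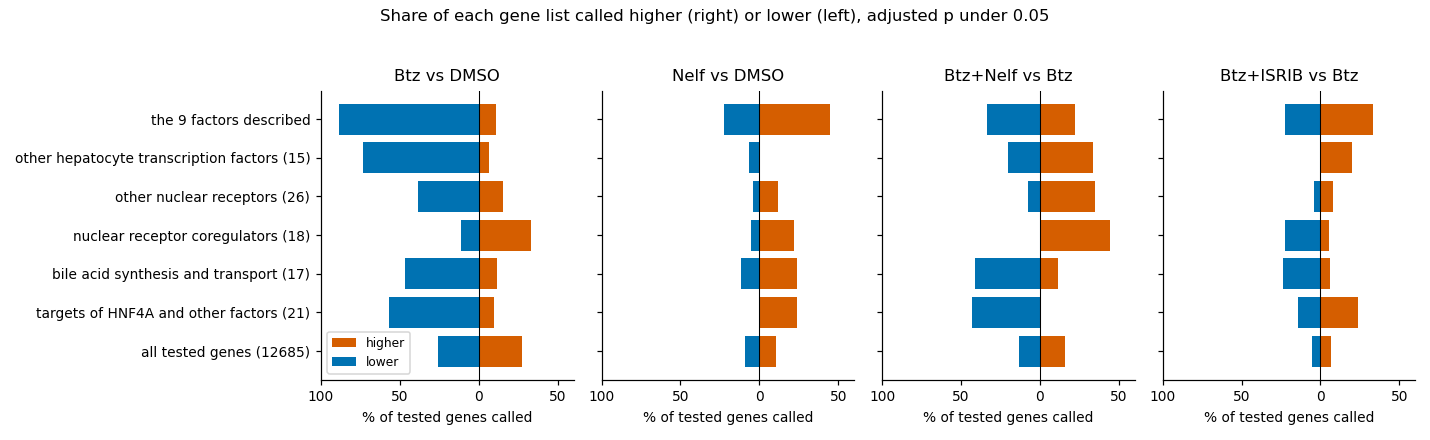
Share of each gene list (rows, with the number tested) called higher (orange, to the right) or lower (blue, to the left) in 4 comparisons; the bottom row gives all tested genes. With Btz the 9 factors and the other hepatocyte factors are mostly blue, against 25.8% of all genes, and the targets of HNF4A and other factors have 5 of 21 higher and none lower with Nelf alone, and 9 of 21 lower and none higher with Nelf on top of Btz.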

How the data were processed

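RNA-Seq of HepG2 cells under 6 treatments was re-analysed in 24 libraries. The authors used the QuantSeq FWD kit, which reads 3′ ends, trimmed the reads (cutadapt 2.8), aligned them to hg19 (STAR, nf-core workflow) and deposited raw read counts per gene on Ensembl GRCh37 genes (18915 rows). Not given in the sources used here are the program that counted, its use of strand and whether reads were collapsed by molecular tags. Intervals on counts would therefore hold for counting error alone. Totals ran from 5154533 to 6943164.

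The filter was filterByExpr, with a minimum count of 5 and a total of 25 or more. After TMM scaling, edgeR 4.0.16 gave the tests (quasi-likelihood, Benjamini-Hochberg over 12685 genes, threshold 0.05, R 4.3.3), all 24 libraries in 1 model. SE is the absolute log2 fold change divided by the square root of F. The closest genes to each factor were taken by Pearson's r of log2 CPM with a prior count of 2. Alternatives were DESeq2 1.42.0, other scalings, filters and gene sets, a replicate block, 2-group fits and leaving out libraries. The code was tested on simulated data. All 36 within-group pairs of libraries differed by more than sampling noise (lowest chi-square per degree of freedom 2.19). From each gene list and comparison at most 4 genes per direction with the smallest p were named. The factors and lists were chosen with earlier results of these data known. Gene positions are from GENCODE on GRCh37. Groups follow the labels, which number the replicates, and the authors state that the replicates are biological. No sample was left out. Some named results are not reported here.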

Additional observations from a re-analysis of the deposited data

Results flagged for a closer look

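In 3 of the 54 combinations of a factor and a group, 1 library stood apart from the other 3 (its gap to the nearest other over the whole range was above Dixon's 95% value for 4, which chance gives in about 1 of 20). They were *HNF4A* in ISRIB replicate 3 (126.7 CPM, the highest), *FOXA1* in Btz_Nelf replicate 2 (13.2 CPM, the highest) and *FOXA3* in Btz_Nelf replicate 1 (1.69 CPM, the lowest). Without Btz_Nelf replicate 1 the *FOXA3* difference of Btz+Nelf from Btz was 0.0193 in place of −0.24, and neither value passed the test.

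The change on adding Nelf differed with and without Btz, by the interaction term in edgeR's quasi-likelihood test, for *HNF4A* (−1.14), *FOXA1* (1.39), *FOXA2* (1.06), *NR1H4* (−0.93) and *NR0B2* (−1.13), all on the log2 scale. For ISRIB it differed for *HNF4A* (−0.60), *FOXA2* (0.71) and *NR1H4* (−0.76).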

How the results depend on the processing

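In all, 7 comparisons were recomputed under 10 other settings and without each library of the groups compared. Of 627 log2 fold changes of the factors under the other settings, 610 kept their direction and their side of the threshold, 6 lost a call, 11 gained one and 0 changed sign. Values that DESeq2 left without an adjusted p counted as not called. Of 648 values with a library left out, 614 kept both, 17 lost a call, 6 gained one and 11 changed sign, none of them a called value. The values that changed sign were those of Nelf on top of Btz for *FOXA1* (−0.0143 to 0.69 over the libraries left out) and *FOXA3* (−0.32 to 0.0193), of ISRIB alone for *FOXA1* (−0.0672 to 0.00635), *NR1H4* (−0.11 to 0.0151), *NR5A2* (−0.49 to 0.00311) and *PROX1* (−0.18 to 0.00126), of Nelf alone for *NR5A2* (−0.18 to 0.0276), and of the Nelf interaction for *PROX1* (−0.0527 to 0.16). All 9 calls with Btz were kept under the 10 settings.

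The count of the 9 factors called fell from 5 to 3 for ISRIB on top of Btz with only the groups compared in the fit, which leaves out the other libraries. In that fit the number of all genes called was 867 in place of 1553 for ISRIB on top of Btz, 2246 in place of 3669 for Nelf on top of Btz, 3873 in place of 2441 for Nelf alone and 80 in place of 0 for ISRIB alone. DESeq2 called 923 genes in place of 612 for the ISRIB interaction and 21 for ISRIB alone, and 39 were called for ISRIB alone without the filter. For these differences the cause was not tested. With library totals alone as scaling, the median log2 fold change of all genes with Btz moved to −0.49 (TMM 0.00174), and 1490 genes were higher and 6266 lower in place of 3498 and 3275. *HNF4A* was then −0.80 and *NR0B2* 2.02. The split for ISRIB on top of Btz became 650 higher and 955 lower (TMM 876 and 677), and for its interaction 278 and 285 (TMM 372 and 240).

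The replicate numbers are not said to pair the libraries. After removal of the group means, 10 of 60 same-numbered pairs and 7 of 180 others correlated above 0.1. The share was higher among same-numbered pairs, a difference that was not tested. In the ISRIB group the lowest library number, S9, carries replicate 4, while in each other group the lowest carries replicate 1. A replicate number may therefore not match between ISRIB and the other groups. As the labels name no shared culture, the libraries were treated as unpaired. With the replicate block, the factors called were 9 for Btz, 6 for Nelf, 0 for ISRIB, 5 for Nelf and 6 for ISRIB on top of Btz, and 5 and 3 for the interactions, and the genes called were 6834, 2566, 0, 3733, 1608, 2596 and 692. Depth limited *NR5A2* (15 to 38 counts per group with Btz) and *ONECUT1* (13 to 24).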
